A study of Xenopus tropicalis with 2 samples.

Results

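The genes described here encode the parts of the microtubule system: tubulins, kinesin and dynein motors, dynactin, and the proteins that bind, cap or sequester microtubules. They were chosen by gene symbol from a list of thyroid hormone receptor (TR) peaks. The symbols were those that start with tuba, tubb, tubg, kif, klc, dync, dynl, dctn, map1 or mapre, together with map2, map4, mapt, stmn1, stmn2 and dcx. They amounted to 46 of the 5285 genes of the list and to 71 of its 6302 peaks. Chromatin immunoprecipitation (ChIP) followed by sequencing had been carried out on Xenopus tropicalis tadpoles of wild-type genotype. They were reared at 25 °C to Nieuwkoop-Faber stage 62, the climax of metamorphosis. Both samples came from the middle part of the brain, which holds the preoptic area with the hypothalamus and thalamus. One group was the ChIP with a polyclonal antiserum to Xenopus TRs, 5 µg of chromatin per reaction, and the other was input chromatin without antibody. Each group had 1 library, so no spread between animals could be measured, no test between groups was possible and every comparison below is a description of this 1 peak list. The antiserum was raised to Xenopus TRs, and the labels do not say whether it separates TRα from TRβ.

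Microtubules are polymers of alpha and beta tubulin that start from gamma-tubulin complexes and grow at their plus ends. Most kinesins carry cargo towards the plus end, and cytoplasmic dynein, with its cofactor dynactin, carries it towards the minus end, so that both together supply axons and dendrites. Microtubule-associated proteins (MAPs) such as tau, Map2 and doublecortin stabilise the polymer in neurons, and stathmins hold tubulin back from it. TRs are nuclear receptors that sit on DNA response elements with or without hormone, and thyroid hormone is known to drive nerve cell birth and neurite growth in the tadpole brain. A peak near a gene is a place where the antiserum enriched chromatin; it does not measure the gene's expression.

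The share of genes with a peak was higher in the microtubule families than among all named genes; with 1 library this was not tested. A gene was paired with a peak that touched its body or the 10 kb upstream of it. The reference gene table names 103 protein-coding genes of these families, of which 44 (42.7%, exact 95% binomial interval 33.0 to 52.8%) had a peak, against 29.8% of all 15628 named protein-coding genes. The genes chosen singly by symbol, map2, map4, mapt, stmn1, stmn2 and dcx, all had a peak and raise this share. They do not stand for whole families, so the share depends in part on how the genes were chosen. The other 2 of the 46 genes, the dynein heavy chain gene dync1h1 and an alpha tubulin gene with no symbol of its own, are not listed there as named protein-coding genes. Exact intervals on shares, here and below, cover counting error only and are not a test. They treat genes or pairs as independent, though some of the genes share a peak and some gave several pairs. Intervals over pairs may therefore be too narrow. With a peak within 1 kb of the gene's start the count was 28 of 103 (27.2%, 18.9 to 36.8%). The share of all named genes, 22%, lies inside that interval. Family genes were somewhat longer in the reference table, with a median of 24.4 kb against 20.4 kb. Among genes of up to 20 kb the share with a peak was 17 of 45 (37.8%) in the families and 28.8% in all named genes, and among longer genes it was 27 of 58 (46.6%) and 30.8%. No intervals were computed for these length classes.

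The share differed between roles, on small numbers. Stathmins and doublecortin had a peak in 3 of 3 genes, structural MAPs in 6 of 8, dynactin in 4 of 6, dynein heavy, intermediate and light intermediate chains in 4 of 6, and beta tubulins in 4 of 7. The structural MAPs here include map10 and map11, which entered only through the map1 prefix of their symbols. They also include map2, map4 and mapt, which were chosen singly by symbol and all had a peak. The stathmin and doublecortin role holds only stmn1, stmn2 and dcx, also chosen singly. The stathmin genes stmn3 and stmn4 lie outside that role and had no listed peak. Kinesin heavy chains, the largest family, stood at 12 of 40 (30.0%), close to the share of all named genes. Alpha tubulins had 2 of 13 and gamma tubulin with its complex 1 of 6, both below it. The alpha tubulin count includes the entry named tubal3.1, whose name is doubtful. Reads with several matches may also affect that count, as described below. The exact intervals were wide, such as 34.9 to 96.8% for structural MAPs, and no role was tested against the share of all named genes. Among structural MAPs, the only peak of map10 lay nearer to the start of sipa1l2. A setting added for the roles after the data were seen kept each peak only for the nearest paired start. There, structural MAPs had 5 of 8 (24.5 to 91.5%) and stathmins and doublecortin 3 of 3, against 24.7% of all named genes. Kinesin heavy chains had 10 of 40 (25.0%) and alpha tubulins 2 of 13 in that setting, and none of this was tested.

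**Figure D1:**
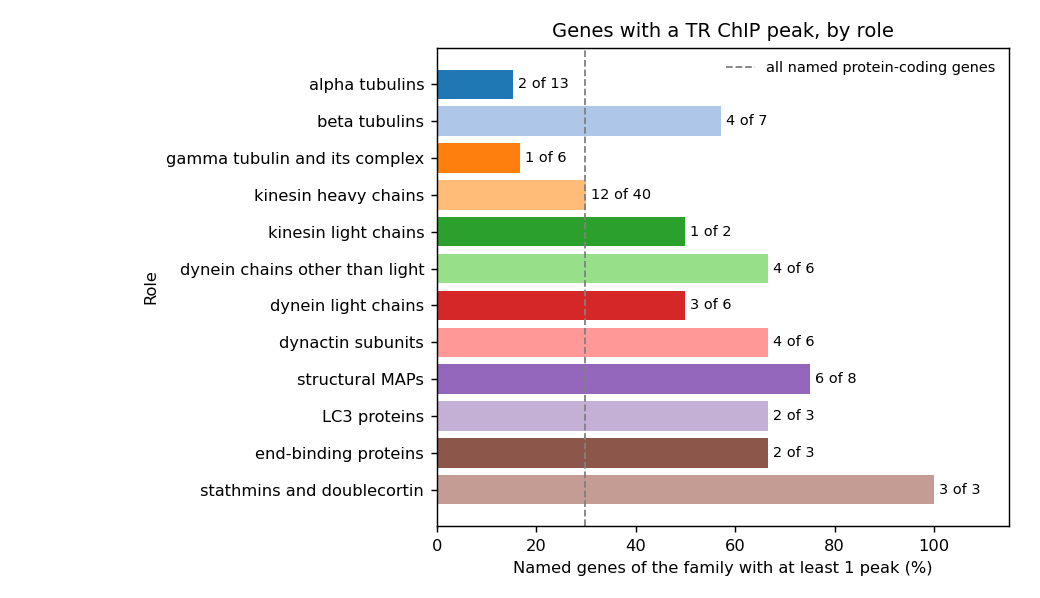
Percent of the named protein-coding genes of each role that were paired with at least 1 peak, with the counts beside the bars and the share of all named protein-coding genes (29.8%) as a dashed line. Bars run from 15.4% in alpha tubulins to 100% in stathmins and doublecortin, and kinesin heavy chains lie at 30.0%. The 100% bar holds only stmn1, stmn2 and dcx. The alpha tubulin bar includes the entry named tubal3.1, whose name is doubtful.

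The peaks themselves were of ordinary strength. Enrichment is the fold of ChIP over background at the summit, as the authors' peak caller gave it. The 71 peaks had a median fold of 4.01 (range 2.32 to 8.24), against 4.08 for all 5214 peaks in gene regions. A median of 26 ChIP fragments, solved from the deposited fold and p-value, covered a summit (range 12 to 68), against 25 for all peaks in gene regions, so most single folds rested on few fragments. Their median width was 376 bp, against 342 bp. A peak in the top 10% of all peaks by fold, which means 6.29 or more, was found at 6 of 46 genes (13.0%), against 16.1% of all genes with a peak. These were dync2h1, kif18b, dctn1, the entry named tubal3.1, tubb3 and dync2li1, of which the peaks at dync2h1 and dctn1 were also paired with another gene. Intervals on folds given below are exact 95% Poisson intervals on the ChIP fragments; neither background error, the spread between animals nor the selection of peaks for being high is in them.

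**Figure D2:**
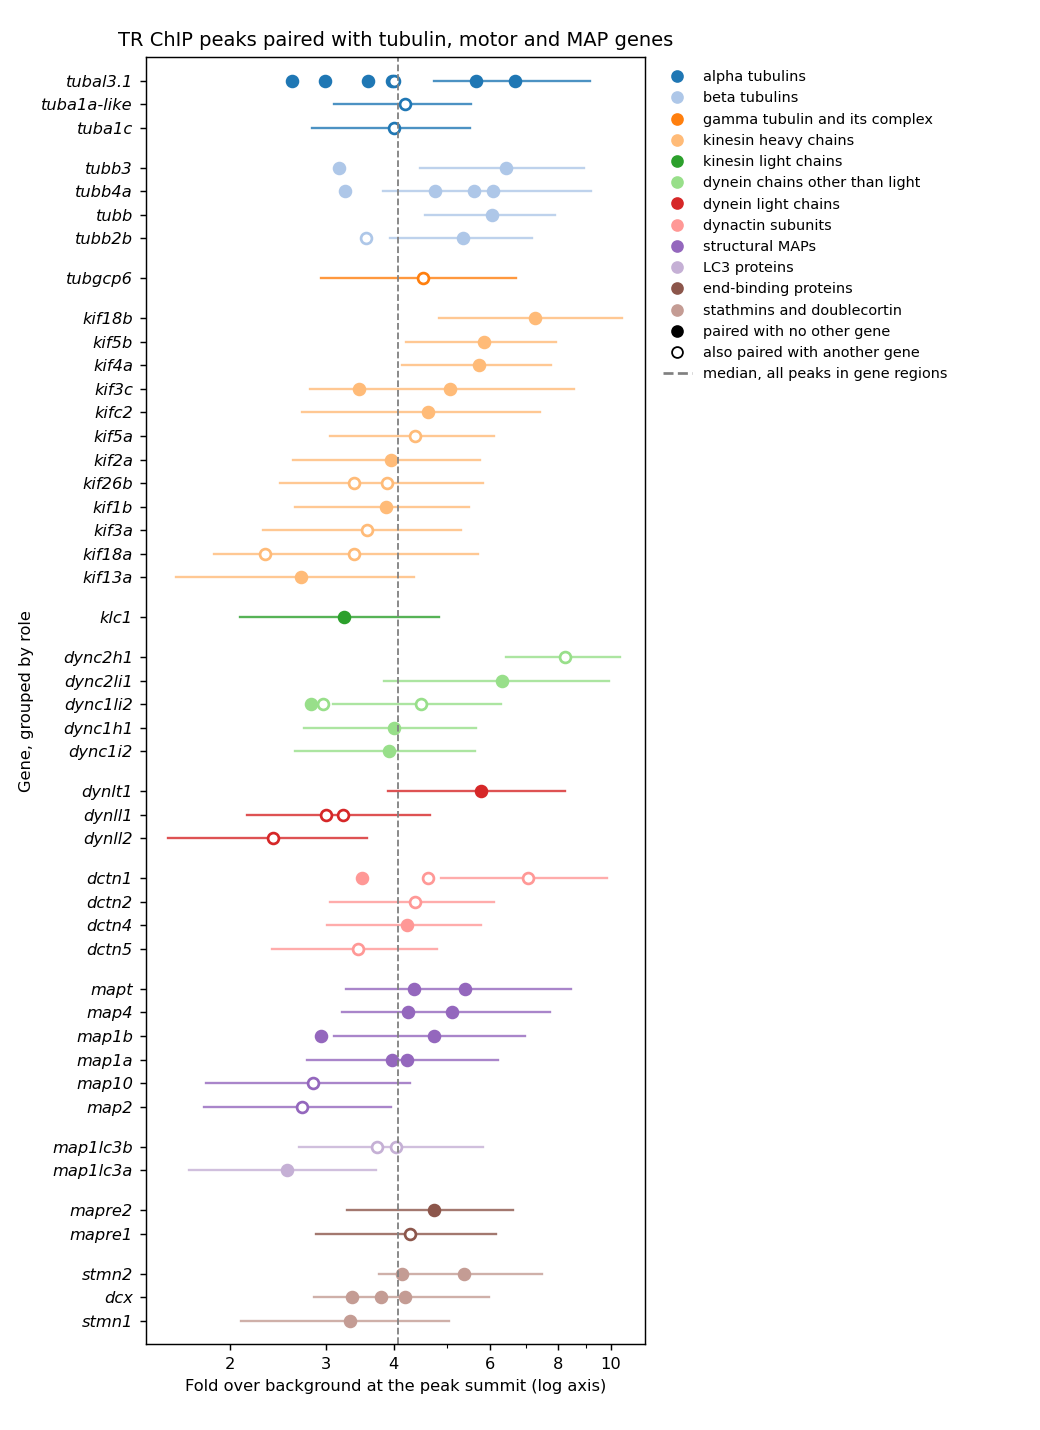
Fold over background (log axis) of every peak paired with each of the 46 genes, grouped by role; filled points are peaks paired with no other gene, open points are peaks also paired with another gene, and the line is the 95% counting interval of each gene's highest peak. The folds run from 2.32 at kif18a to 8.24 at dync2h1, on either side of the median of all peaks in gene regions (4.08, dashed), and most intervals overlap one another.

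Alpha tubulins held many peaks at 1 place and few elsewhere. The entry named tubal3.1, a gene model of 121 kb on the minus strand of chromosome 2, had 7 peaks, the most of any gene here. The name is doubtful. The reference table puts tubal3.1 on chromosome 3 and lists, on chromosome 2, the alpha tubulin genes tuba1b, tuba1a and tuba1c in this order, with 1 gene without a symbol between the last of these. In the peak list tuba1c lies inside the model on the opposite strand. The highest of the 7 peaks (133306208 to 133307340) was 6.68-fold (4.73 to 9.18; 36 ChIP fragments) and lay 53.2 kb upstream of the tuba1c start. A peak of 5.67 (4.01 to 7.79) lay 28.6 kb upstream and one of 3.97 at 37.1 kb upstream of that start. The remaining peaks upstream of tuba1c came as close pairs, with folds of 2.60 at 54.5 kb beside the highest peak, and of 3.58 and 2.99 at 72.6 and 72.9 kb. The last of the 7 lay 73 bp downstream of the tuba1c start (133359895 to 133360415; 4.01, 2.82 to 5.53) and was the only peak of tuba1c. All 7 lay more than 44 kb from the start of the model that gave them their name. The alpha tubulin gene without a symbol, on chromosome 9 and described as an alpha-1A chain, had 1 peak of 4.19 (3.1 to 5.55), 6.47 kb upstream of its start and 14 bp from the start of gmppa. No peak was listed under the names tuba1a, tuba1b, tuba3c, tuba4b, tuba8, tubal3.2 or the tuba1-like genes. Alpha tubulin genes can be much alike in coding sequence. How reads with several matches were treated is not given in the sources used here, so a fold within such a stretch may be shared or lost.

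**Figure D3:**
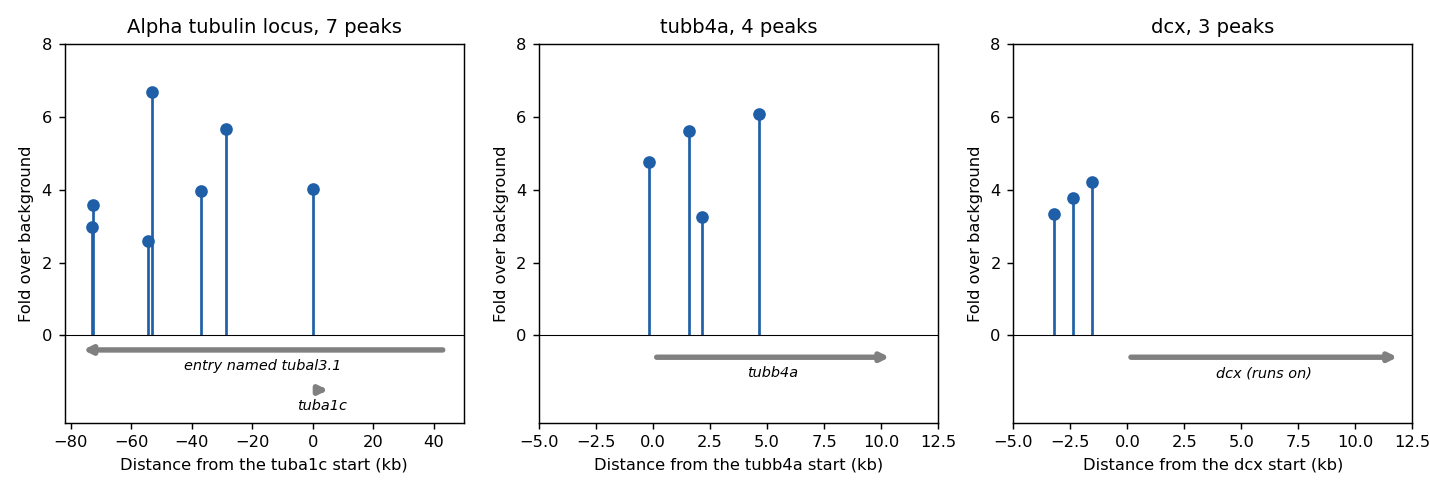
Fold over background of each peak against its summit's distance in kb from a gene start at 3 loci: the alpha tubulin locus (0 is the tuba1c start), tubb4a and dcx, with gene bodies as grey arrows in the direction of transcription. The 7 alpha tubulin peaks lie at or upstream of tuba1c, inside the 121 kb model named tubal3.1; the 4 peaks of tubb4a lie at and after its start, and the 3 of dcx all lie before it.

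Beta tubulins had the highest median fold of the roles with more than 1 peak, 5.36 over 9 peaks. All 4 genes with a peak had one within 1 kb of the start. Of all genes with a peak, 68.6% had one there, and 4 genes are too few to set against that share. tubb3, the class III gene that marks neurons, had its highest peak 103 bp downstream of the start on chromosome 4 (63633863 to 63634729). It was enriched 6.41-fold (4.47 to 8.93; 33 fragments). A second, weaker peak (3.17, 1.97 to 4.86) lay 1.78 kb downstream. tubb, the class I gene used in most cells, had 1 peak, which at 2500 bp was the widest of the 71, on chromosome 8 (52658838 to 52661337). Its summit lay 145 bp downstream of the start and was enriched 6.06-fold (4.57 to 7.89; 53 fragments). tubb4a, a class IV gene of the nervous system, had 4 peaks on chromosome 3, none paired with another gene. Their folds were 4.76 (3.32 to 6.63) at 178 bp upstream of the start, 5.62 (3.71 to 8.19) at 1.56 kb downstream, 3.26 (2.05 to 4.95) at 2.16 kb and 6.07 (3.82 to 9.22) at 4.65 kb, so the start did not carry the highest fold, though all 4 intervals overlap. tubb2b, known in Xenopus as N-tubulin and a marker of differentiating neurons, had a peak of 5.36 (3.93 to 7.16) at 397 bp downstream of its start on chromosome 6 and a weaker one (3.55) at 1.39 kb. The weaker peak was also paired with bphl. No peak was listed for tubb1, tubb4b or tubb6. Gamma tubulin (tubg1) itself had none, and of its complex only tubgcp6 did, at 164 bp upstream of the start (4.53, 2.94 to 6.70), a peak that also lay 458 bp upstream of the deacetylase gene hdac10 on the opposite strand.

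Kinesin heavy chains had 15 peaks at 12 genes, with a median fold of 3.88. Of kinesins known for transport, 7 of 17 had a peak (41.2%), against 29.8% of all named protein-coding genes, a difference of few genes that was not tested. The list includes kif26a and kif26b, atypical kinesins that lack motor ATPase activity; without them, a change made after the data were seen, it was 6 of 15. The highest was at kif5b, a conventional kinesin found in most cells, 238 bp downstream of its start on chromosome 6 (14724701 to 14725092; 5.85-fold, 4.20 to 7.95). kif3c, a kinesin-2 subunit enriched in neurons, had a peak of 5.06 (2.80 to 8.55) at 15.3 kb into the gene, from only 12 fragments, and one of 3.45 at 299 bp downstream of the start. kif5a, the neuronal conventional kinesin, had only a peak of 4.38 (3.06 to 6.10) at 6.88 kb upstream, which lay 66 bp downstream of the start of the dynactin gene dctn2. kif3a likewise had only a peak 4.61 kb upstream (3.57), and its nearest start, at 386 bp, was that of ccni2. The others were kif26b (3.88 at 240 bp upstream and 3.37 at 1.02 kb downstream, both also paired with yju2), kif1b (3.87 at 77 bp downstream) and kif13a (2.70 at 42.1 kb into the gene). The neuronal transport kinesins kif1a, kif5c, kif17, kif21a and kif21b had no listed peak.

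Of kinesins known for cell division, 3 of 12 had a peak (25.0%), near the 29.8% of all named protein-coding genes. The 6 genes kif6, kif7, kif9, kif19, kif24 and kif27, listed for their roles in cilia or flagella, had no listed peak, too few genes to set against that share. kif3a, counted under transport, also drives transport in cilia. kif18b, a regulator of spindle microtubule length, had the highest fold of all kinesins, 7.25 (4.83 to 10.5), at 2.90 kb upstream of its start on chromosome 7 (105680270 to 105680586), given by 26 fragments over a low background of 2.72. The chromokinesin gene kif4a was marked 118 bp before its start on chromosome 8 (5.74, 4.14 to 7.76). kif18a, a related motor that aligns chromosomes, had the weakest peak of the 71, at 6 bp upstream of the start (2.32, 1.56 to 3.34), where mettl15 starts 30 bp away on the other strand. Its second peak (3.37) rested on 12 fragments and was also paired with mettl15. kif11, kif14, kif15, kif20a, kif20b, kif22, kif23, kif2c and kifc1 had none. Outside these groups, the microtubule depolymerase gene kif2a had a peak 382 bp downstream of its start (3.95, 2.61 to 5.77), and kifc2, a motor of the kinesin-14 type, had one 5.04 kb into the gene (4.62, 2.71 to 7.43). The kinesin light chain gene klc1, whose product links conventional kinesin to cargo, had a peak of 3.24 (2.08 to 4.84) at 165 bp downstream of its start, and klc4 had none.

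Cytoplasmic dynein exists as dynein-1, which carries cargo in the cytoplasm, and dynein-2, which works inside cilia, and subunits of both had peaks. The highest folds were listed at dynein-2. The highest fold of the 71 peaks, 8.24 (6.43 to 10.4) from 68 fragments, was paired with its heavy chain gene dync2h1 (chromosome 2, 158458767 to 158459141). This peak lay 8.07 kb upstream of dync2h1 and 40 bp upstream of dcun1d5 on the other strand. The light intermediate chain gene dync2li1 had an unshared peak on chromosome 5 (14530611 to 14530829), 1.90 kb before its start. Its fold of 6.33 (3.83 to 9.92) came from 17 fragments against a background of 1.84, and its interval overlapped those of dynein-1. In dynein-1, the light intermediate chain gene dync1li2 had 3 peaks on chromosome 4: 4.48 (3.09 to 6.30) at 194 bp upstream, 2.96 at 652 bp upstream and 2.81 at 11.8 kb into the gene. Those upstream were also paired with another entry on the other strand, and the third with none. The heavy chain gene dync1h1 had 1 peak 3.40 kb downstream of its start on chromosome 8 (76479827 to 76480170; 4.0, 2.74 to 5.65), and the intermediate chain gene dync1i2 had 1 at 80 bp downstream (3.92, 2.63 to 5.64). dync1i1 and dync1li1 had none. Among light chains, which serve the motor and other complexes, dynlt1 had a peak 21.8 kb into the gene (5.78, 3.91 to 8.26). dynll1 was listed as a model of 126 kb whose peaks (3.22 and 3.0) lay 15 bp from the start of pop5 and 22 bp from that of rnf10. dynll2 had a weak peak 81 bp downstream of its start (2.40, 1.54 to 3.57), also paired with heatr6 and synrg.

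Dynactin, which ties dynein to cargo and keeps it moving, had peaks at 4 of 6 genes. Each of the 4 had one within 1 kb of its start, against 68.6% of all genes with a peak, again on few genes. dctn1, which encodes the large p150 subunit, had 3 peaks on chromosome 1. The highest (10107645 to 10107983) lay 4.31 kb downstream of the start (7.04, 4.88 to 9.85), above the peaks at 117 bp (4.62, 2.84 to 7.16) and at 24.5 kb (3.5, 2.25 to 5.22); its interval overlapped both. The first and second of these were also paired with a gene without a symbol on the other strand, and the third with none. The peaks at the starts of the other genes were alike in fold: dctn2, the dynamitin gene, 4.38 (3.06 to 6.10) at 66 bp; dctn4 4.23 (3.01 to 5.79) at 47 bp; and dctn5 3.44 (2.38 to 4.81) at 4 bp. The last of these also lay 40 bp upstream of palb2 on the other strand. dctn3 and dctn6 had none.

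Of the 10 peaks of structural MAPs, 2 lay within 1 kb of the gene's start, where 39.7% of all pairs of the 46 genes and 56.7% of all pairs in the list lay. mapt, which encodes tau, had peaks 2.03 kb (4.36, 2.80 to 6.50) and 43.3 kb (5.40, 3.27 to 8.47) into the gene on chromosome 10, the latter from 17 fragments. map4, the MAP of most cells, had peaks of 5.11 (3.21 to 7.76) and 4.25 (2.73 to 6.34) at 33.9 and 37.6 kb into the gene on chromosome 6. map1a, a MAP of mature neurons, had peaks of 4.23 (2.77 to 6.21) and 3.97 (2.53 to 5.98) at 40.3 and 41.7 kb into the gene on chromosome 3. By contrast, map1b, the MAP of growing axons, had its highest peak 249 bp downstream of the start on chromosome 1 (4.74, 3.1 to 6.96), with a weaker one (2.94) at 1.93 kb. map2, the dendritic MAP, had 1 weak peak 899 bp downstream of its start (2.71, 1.79 to 3.95), also paired with lancl1 and myl1. The only peak of map10 (2.84) lay 3.44 kb upstream and 221 bp from the start of sipa1l2. map1s and map11 had none. The end-binding genes mapre2 (4.74, 3.29 to 6.63, at 146 bp downstream) and mapre1 (4.29, 2.88 to 6.17, at 11 bp upstream) had 1 peak each at the start, and mapre3 had none. The peak of mapre1 was also paired with nol4l. The LC3 genes share the map1 prefix but act in autophagy: map1lc3b had peaks of 4.03 at 6.83 kb upstream, which was 191 bp from the fbxo31 start, and 3.72 at 106 bp downstream, and map1lc3a had 1 of 2.55 at 90 bp upstream. Each peak of map1lc3b was also paired with fbxo31.

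The stathmin and doublecortin genes differed in where their peaks lay. stmn2, a stathmin of growing neurites, had peaks at 153 bp (5.38, 3.76 to 7.50) and 1.60 kb (4.14, 2.54 to 6.41) downstream of its start on chromosome 6. dcx, a MAP of migrating neurons, had 3 peaks on chromosome 8, all upstream and none paired with another gene, at 1.55 kb (4.20, 2.86 to 5.97), 2.36 kb (3.78, 2.52 to 5.47) and 3.21 kb (3.34, 2.24 to 4.81). No peak of dcx lay within 1 kb of the annotated start. stmn1 had 1 peak of 3.33 (2.09 to 5.05) at 8.03 kb upstream.

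Across the 46 genes, the share of peaks at the gene's own start was below that in the list as a whole, a difference that was not tested. Of the 73 pairs of a peak and one of these genes, 29 (39.7%, 28.5 to 51.9%) had the summit within 1 kb of that gene's start, against 56.7% of all 6760 pairs. Counting the start of any paired gene, 36 of the 71 peaks (50.7%) lay within 1 kb of one, against 64.9% of all peaks in gene regions. Counted by gene, 28 of 46 (60.9%, 45.4 to 74.9%) had a peak there, against 68.6% of all genes with a peak. Of the other pairs, 32 lay further into the gene body and 12 further upstream. Within 1 kb, 20 summits lay at or downstream of the start and 9 upstream, at a median of 145 bp, against 157 bp in all genes. The list-wide shares by side, in gene bodies and further upstream are not given here. These splits therefore cannot be called particular to the 46 genes. The median fold was 4.23 for the 29 peaks near a start and 3.98 for the other 42, a difference that was not tested. The 46 gene models were longer, with a median of 34.1 kb against 19.6 kb for all genes with a peak; the part of gene length in the positions was not tested. The entry named tubal3.1 alone gave 7 of the 73 pairs, none near its start.

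**Figure D4:**
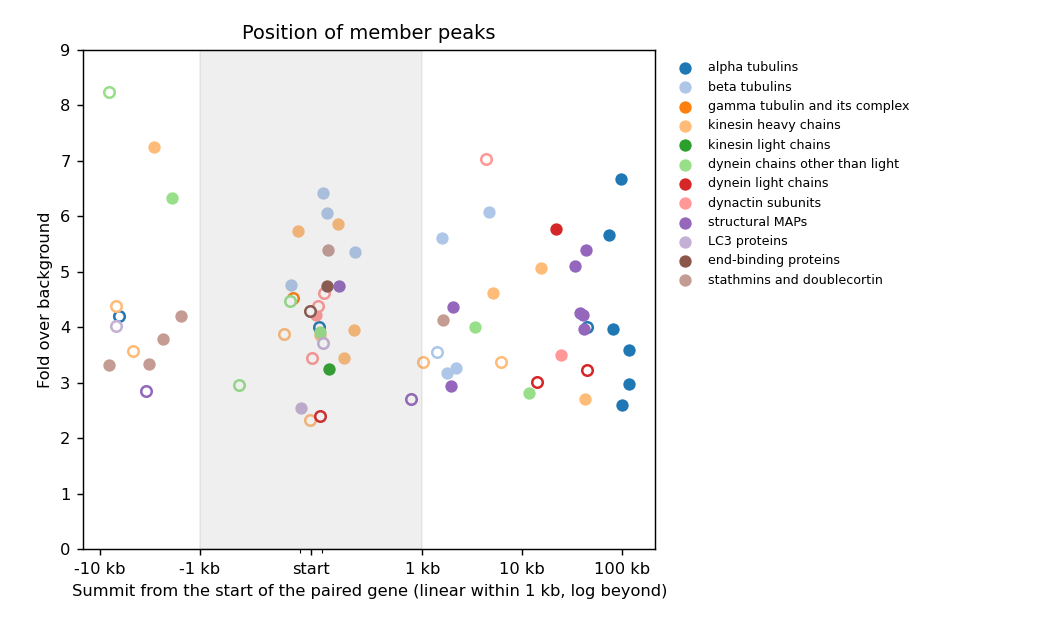
Fold over background of the 73 pairs against the distance of the summit from the start of the paired gene, linear within 1 kb (grey) and logarithmic beyond, with negative values upstream; colours are roles and open points are peaks also paired with another gene. The 29 pairs in the grey band include all 4 beta tubulin starts, and most structural MAP and tubal3.1 pairs lie to the right, inside the gene.

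Peaks shared with neighbours were set apart. Of the 71 peaks, 47 were paired with no other gene and 24 (33.8%) with at least 1 other. Among all peaks in gene regions the shared part was 24%, but these shares are not on like terms. A peak paired with several genes had more chances to be among the 71. At least 1 unshared peak was held by 30 of 46 genes (65.2%), against 57% of all genes with a peak. Shared peaks that 2 of the genes described here lay at dctn2 with kif5a and at tuba1c with the entry named tubal3.1. For 6 genes every peak lay nearer to the start of another paired gene: dync2h1, dynll1, kif3a, kif5a, map10 and the alpha tubulin gene without a symbol. These peaks cannot be assigned to the microtubule gene from position alone. Such losses were seen in the whole list too. With each peak kept only for its nearest paired start, the share of named family genes with a peak fell from 42.7% to 37.9%. That of all named protein-coding genes fell from 29.8% to 24.7%. Head-to-head starts within 500 bp of the summit on both sides were seen at dctn5 with palb2, kif18a with mettl15 and tubgcp6 with hdac10. Of the 46 genes, 5 (10.9%, 3.62 to 23.6%) had 3 or more peaks, against 5.11% of all genes with a peak. They were tubb4a and dcx, with unshared peaks only, dctn1 and dync1li2, with 1 unshared peak each, and the doubtful entry named tubal3.1. The part of gene length in this count was not tested.

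Other listed genes of the microtubule system had peaks in 32 of 80 cases (40.0%), against the same 29.8%. Apart from axonemal dynein, these lists were written by hand rather than taken as whole families. Earlier results of these data were known by then, so the shares are not independent of them and were not tested. Tubulin-modifying enzymes had 10 of the 17 listed, and the highest folds among the genes described here lay there. svbp, the partner of the vasohibins that remove the last tyrosine of alpha tubulin, had a peak of 14 (11.7 to 16.7) at 374 bp downstream of its start on an unplaced scaffold. The tubulin ligase gene ttll5 (10.9, 8.49 to 13.7) and the polyglutamylase subunit gene tpgs1 (9.75, 7.35 to 12.7) followed, with peaks at 22 and 425 bp downstream of their starts that were also paired with other genes. Tubulin folding factors had 3 of 5, severing enzymes 3 of 7 and kinesin adaptors 3 of 5, led by trak2 (5.68, 4.32 to 7.33). The only peak of trak2 was also paired with another gene. Proteins that control microtubule ends and polymer had 8 of 19, led by ckap5, whose only peak (7.61) lay 8.43 kb upstream and was shared. Dynein regulators and adaptors had 3 of 11, led by hook2 (6.59, 4.72 to 8.99). Axonemal dynein genes, which build motile cilia, had 2 of 16, namely dnah2 (5.31) and dnal4 (4.06).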

How the data were processed

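The authors deposited 1 list of 6302 peaks, each paired with the genes whose body or upstream 10 kb it touched. Per the submitters' processing notes, the aligner BWA 0.7.17, the peak caller MACS2 2.2.6 and deepTools 3.5.1 were among the tools, their settings not stated. The genome build is not given in the sources used here; coordinates are those of the deposited list. Per the file headers, enrichment is a linear fold ratio, significance is the −log10 of a p-value and its adjusted form, and score is a peak score; positions and widths are deposited in base pairs. The lowest deposited −log10 adjusted p-value was 1.31.

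ChIP fragments were solved from fold and p-value under a Poisson model, to within 2.48e-05 in −log10 p. The solver was tested on data simulated with the same formulas, which checks the inversion and not the model itself. Total depths are not known. Names followed the NCBI gene number in the description where one was cited. Of the 46 genes, 8 were named by description against the deposited name or a blank. An entry deposited as tubg1 but described as another gene on chromosome 1 was left out, and dync1h1, deposited under another name, was taken in from its description. Of 43 genes on chromosomes with a named counterpart in the reference table, whose assembly is UCB_Xtro_10.0 and which served for names and lengths only, 42 lay on the same chromosome. Of all 5285 genes, 335 (6.34%) had no usable name and could not count. Genes and lists were chosen with earlier results of these data known. Named genes were the 3 with the highest fold per role, those with 3 or more peaks or a peak in the top 10%, and the others by name. Receptor motifs in promoters were not analysed here. Python 3.11.15, pandas 2.3.3 and scipy 1.17.1 were used.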

Additional observations from a re-analysis of the deposited data

How the results depend on the processing

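Of 57 recomputed values, 44 stayed within 1.5 times the count or within the counting interval. With the 3151 stronger peaks, the 71 peaks became 42, the share of family genes with a peak 31.1% (all named genes 19.0%) and the median fold 4.50. With the strongest 1000 peaks, 9 genes and 10 peaks were left, the share was 8.74% (all named genes 7.67%) and the median fold 6.24; both settings select on strength. With only peaks paired with no other gene, chosen after seeing the data, 30 genes and 47 peaks were left and the share was 28.2% (all named genes 18.2%). There, and where the nearest start alone took each peak, the share of genes with an unshared peak is 100% by construction. With the nearest start the share with a peak was 37.9% (all named genes 24.7%). A window of 2.5 kb raised the share of peaks near a start from 40.8% to 56.3%. The share of all peaks in that window is not given here, so 56.3% cannot be set against the list-wide shares at 1 kb. Names as deposited, a 5 kb upstream limit, midpoints, a 500 bp window, leaving out LC3 and gamma-complex genes and, added later, reading the naming rule to the letter or leaving out tubal3.1 moved no value past these limits. No paired analysis was possible because each group had 1 library. Folds rest on 12 to 68 fragments, which limits any order among peaks.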

Other observations

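Among small sets of cell type markers, 6 of 9 neuronal genes had a peak (snap25, elavl4, syp, syt1, elavl3 and gap43). The other neuronal genes of the set, nefl, nefm and rbfox3, had none. The counts were 0 of 4 for oligodendrocytes, 0 of 3 for microglia and 1 of 5 for endothelium and blood (tal1). All these sets, the neuronal one included, are too small to set against the 29.8% of all named protein-coding genes with a peak. A peak does not measure expression, so these counts do not settle which cells the tissue held.

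An entry on chromosome 3 deposited as siah2 but described as a kinesin-like protein of the KIN-14R type had a peak with a fold of 7.04. It falls outside the naming rule and was counted in no comparison. An entry deposited as kif6 on chromosome 6, with a fold of 5.74, is described as Jrk, and the reference table puts kif6 on chromosome 5; it was not counted as a kinesin.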
